A study of Mus musculus with 28 samples.

Results

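The transcripts described here encode parts of the phagocyte NADPH oxidase (Cybb, Cyba, Ncf1, Ncf4 and Rac2) and the intracellular superoxide dismutases (Sod1 and Sod2). These 7 genes were taken by name from 54532 genes counted in bulk RNA sequencing of murine bone marrow-derived macrophages (BMDMs), as members of the oxidase and dismutase systems and not by a threshold on their values. All 7 passed the minimum level of 10 TPM (a level corrected for gene length and for the library total) in each of the 12 comparisons. The 28 cultures formed 6 groups. Control cultures received PBS (5 cultures at 3.5 h and 5 at 16 h), VWF cultures received plasma-derived von Willebrand factor (pd-VWF) at 10 µg/ml (5 at each time), and LPS cultures received lipopolysaccharide, a bacterial cell wall component, at 100 ng/ml (4 at each time). The cells of every group came from the bone marrow of C57/B6JB mice, were grown with M-CSF and were treated in fresh medium with 1 mM CaCl2. No group carried a genetic change. The labels call the cultures biological replicates and do not tie them to animals, so the p-values measure the spread between these cultures.

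The phagocyte oxidase moves electrons from NADPH across a membrane onto oxygen and so makes superoxide. Its membrane part, flavocytochrome b558, is a pair of gp91phox (Cybb), which carries the electrons, and p22phox (Cyba), which stabilizes it. In resting cells cytosolic subunits, among them the organizer p47phox (Ncf1) and p40phox (Ncf4), stay apart from it, and on activation they join the membrane part together with a GTP-bound Rac protein, Rac2 in neutrophils and, with Rac1, in macrophages. Superoxide dismutases turn superoxide into hydrogen peroxide, the copper-zinc enzyme Sod1 mainly in the cytosol and the manganese enzyme Sod2 in mitochondria. Sod2 is a well-known target of inflammatory signalling through NF-kappaB, and the activity of the oxidase itself depends on phosphorylation and assembly, which transcript levels do not measure.

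Total counts per culture lay between 41131209 and 77699206. The TMM scaling factors were 0.735 to 0.848 in the LPS cultures and 0.945 to 1.18 in the others. Expression is given as CPM, counts scaled to a common library total after this adjustment. Control 16 h replicate 5 stood apart from the other control cultures of its time (root mean square difference 0.89 on the log2 scale, against 0.27 to 0.31 for those 4), as did LPS 16 h replicate 4 (0.69, against 0.18 to 0.43 for the other 3), so results that rest on them are given with and without these cultures. All 8 macrophage markers were expressed in every group, with summed levels of 18850 to 30690 TPM in control, 21590 to 27170 TPM in VWF and 10570 to 18180 TPM in LPS cultures at 3.5 h, and of 7670 to 36790, 28540 to 50690 and 9179 to 19010 TPM at 16 h. In this sum LPS cultures lay below both other groups at 3.5 h and below VWF cultures at 16 h. The single markers did not move together. By the test against control (adjusted p under 0.05), 2 of 8 were higher and 2 lower with LPS at 3.5 h (31.8% and 33.9% of all genes). At 16 h, 4 were higher and 1 lower with LPS (27.3% and 26.4% of all genes). With VWF, 3 were higher and 1 lower at 3.5 h (22.3% and 21.3% of all genes). VWF cultures at 16 h had 4 higher and 1 lower (13.1% and 14.7% of all genes). The median log2 fold changes of the 8 markers at 16 h were 0.71 with VWF and 0.46 with LPS, and at 3.5 h 0.05 and −0.12. Mitochondrial genes held 0.685% to 1.12% of the counts in control, 0.570% to 0.944% in VWF and 0.4445% to 0.6695% in LPS cultures at 3.5 h, and 0.5755% to 0.845%, 0.551% to 0.721% and 0.269% to 0.467% at 16 h. The part of either in the results was not tested. The summed level of 10 neutrophil markers was 20.4 to 129 TPM, with 4 to 6 of them reaching 1 TPM in each group. Ly6g, which defines neutrophils, was at 0 in 4 of the 6 groups. With VWF, 0 of 3 tested neutrophil markers were higher by the test at 3.5 h (22.3% of all genes) and 1 of 3 at 16 h (13.1%). With LPS these were 2 of 2 (31.8%) and 0 of 2 (27.3%). Their median log2 fold changes were 1.07, 1.28, 1.35 and 0.70 in that order, and their part in the results was not tested. Dendritic cell markers summed to 0.459 to 1.69 TPM in the control groups and VWF cultures at 16 h and to 7.29 to 12.2 TPM in VWF cultures at 3.5 h and LPS cultures at both times. Of these 5 markers, 2 reached 1 TPM in VWF cultures at 3.5 h and 1 in LPS cultures at each time, so the sums rest on few genes. Only 1 was tested, with LPS, and it was higher at 3.5 h (log2 5.55, 31.8% of all genes higher) and at 16 h (5.36, 27.3%). The part of these markers in the results was not tested. Lymphocyte markers summed to at most 0.942 TPM and fibroblast markers to 4.08 to 153 TPM. In bulk samples, fewer cells of a type and less RNA per cell cannot be told apart.

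On the mouse genome GRCm38, Cybb (ENSMUSG00000015340) spans chrX:9435252-9487771, Cyba (ENSMUSG00000006519) chr8:122424776-122432930, Ncf1 (ENSMUSG00000015950) chr5:134220053-134229625 and Rac2 (ENSMUSG00000033220) chr15:78559167-78572783, all on the minus strand. Ncf4 (ENSMUSG00000071715) at chr15:78244801-78262580, Sod1 (ENSMUSG00000022982) at chr16:90220754-90226329 and Sod2 (ENSMUSG00000006818) at chr17:13006846-13040063 lie on the plus strand. Ncf4 and Rac2 are thus on the same chromosome. In Ncf1, 11.1% of the exon length overlaps Gtf2ird2 on the opposite strand, whose group means were 4.15 to 19.5 CPM. Gtf2ird2 was highest in VWF cultures at 3.5 h, as Ncf1 was, at 19.5 CPM against 10.1 CPM in control and 4.15 CPM in LPS cultures. The strand setting of the counting is not given in the sources used here, and the part of this overlap was not tested.

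RefSeq promoter windows (GRCm38.p6) were matched for 5 of the 7 genes, Cybb, Cyba, Ncf1, Sod1 and Sod2. Those of Cybb, Ncf1 and Sod2 are shown because these 3 transcripts rose more than 2-fold with VWF at 3.5 h. Each line is the 250 bases before the RefSeq start, 5′ to 3′ on the strand of the gene, at chrX:9469325-9469574, minus strand, chr5:134229626-134229875, minus strand, and chr17:13007589-13007838, plus strand. Capitals mark matches, on either strand, to an NF-kappaB-like pattern (GGG, any 5 bases, CC), an ISRE-like pattern after the interferon response element (GAAA, any 2 bases, GAAA) and a STAT-like pattern (TTC, any 3 bases, GAA).
Cybb: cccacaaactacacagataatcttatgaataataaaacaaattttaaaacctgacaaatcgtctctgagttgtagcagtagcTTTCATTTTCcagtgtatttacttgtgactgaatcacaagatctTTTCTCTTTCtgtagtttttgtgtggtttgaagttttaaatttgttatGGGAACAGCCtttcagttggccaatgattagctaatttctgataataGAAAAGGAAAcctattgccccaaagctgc
Ncf1: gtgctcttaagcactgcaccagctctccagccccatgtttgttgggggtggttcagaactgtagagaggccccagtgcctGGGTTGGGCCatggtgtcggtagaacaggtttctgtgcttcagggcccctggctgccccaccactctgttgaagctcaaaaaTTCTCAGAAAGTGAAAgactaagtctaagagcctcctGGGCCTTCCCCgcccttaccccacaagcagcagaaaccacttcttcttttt
Sod2: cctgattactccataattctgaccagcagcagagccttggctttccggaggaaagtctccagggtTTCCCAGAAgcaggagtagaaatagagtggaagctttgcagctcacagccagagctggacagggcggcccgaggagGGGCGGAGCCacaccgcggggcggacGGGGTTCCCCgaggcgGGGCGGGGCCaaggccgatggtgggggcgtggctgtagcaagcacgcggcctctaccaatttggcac
The Cybb promoter held 3 ISRE-like matches and the Ncf1 promoter 1, while the Cyba, Sod1 and Sod2 windows held 0, and 2.98% of 32851 mouse promoter windows of this length held at least 1. A STAT-like match was present in Ncf1, where it overlaps the ISRE-like match, and in Sod2, and in 7.02% of all windows. All 5 windows held an NF-kappaB-like match, as did 45.8% of all windows, so this short pattern does not set these genes apart. Matches to GAGGAAG (PU.1-like, in 10.6% of all windows) and TGACTCA (AP-1-like, in 4.46%) were not found in the 5 windows. These are matches of letters, and binding was not measured.

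The first question was which of these genes responded to VWF and to LPS, each against PBS control. With VWF at 3.5 h, 5 of 7 genes passed the test (adjusted p under 0.05), all higher, and 3 of them (Cybb, Ncf1 and Sod2) also exceeded a 2-fold change. Over all 8200 genes tested, 22.3% were higher by the test and 9.10% by both rules. With LPS at 3.5 h, 5 of 7 genes were higher by the test, against 31.8% of all genes, and 2 (Cybb and Sod2) by both rules, against 12.8%. At 16 h, VWF cultures had 3 genes higher by the test (13.1% of all genes) and 2 by both rules (4.55%), again Cybb and Sod2. LPS cultures at 16 h had 4 genes higher by the test (27.3% of all genes) and the same 4 by both rules (15.3%), Cybb, Ncf4, Rac2 and Sod2. The median log2 fold change of the 7 genes was 0.43, 0.41, 0.54 and 1.01 in these 4 comparisons in that order, with medians over all genes tested of −0.01, −0.02, −0.03 and −0.03. With all 6 groups in 1 fit, calls at 3.5 h were lost for Rac2 with VWF (adjusted p = 0.169) and for Cyba, Ncf1 and Sod1 with LPS (adjusted p = 0.0701, 0.297 and 0.0769). VWF and LPS were compared with the same control cultures, so their folds against control are not independent of each other.

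**Figure D1:**
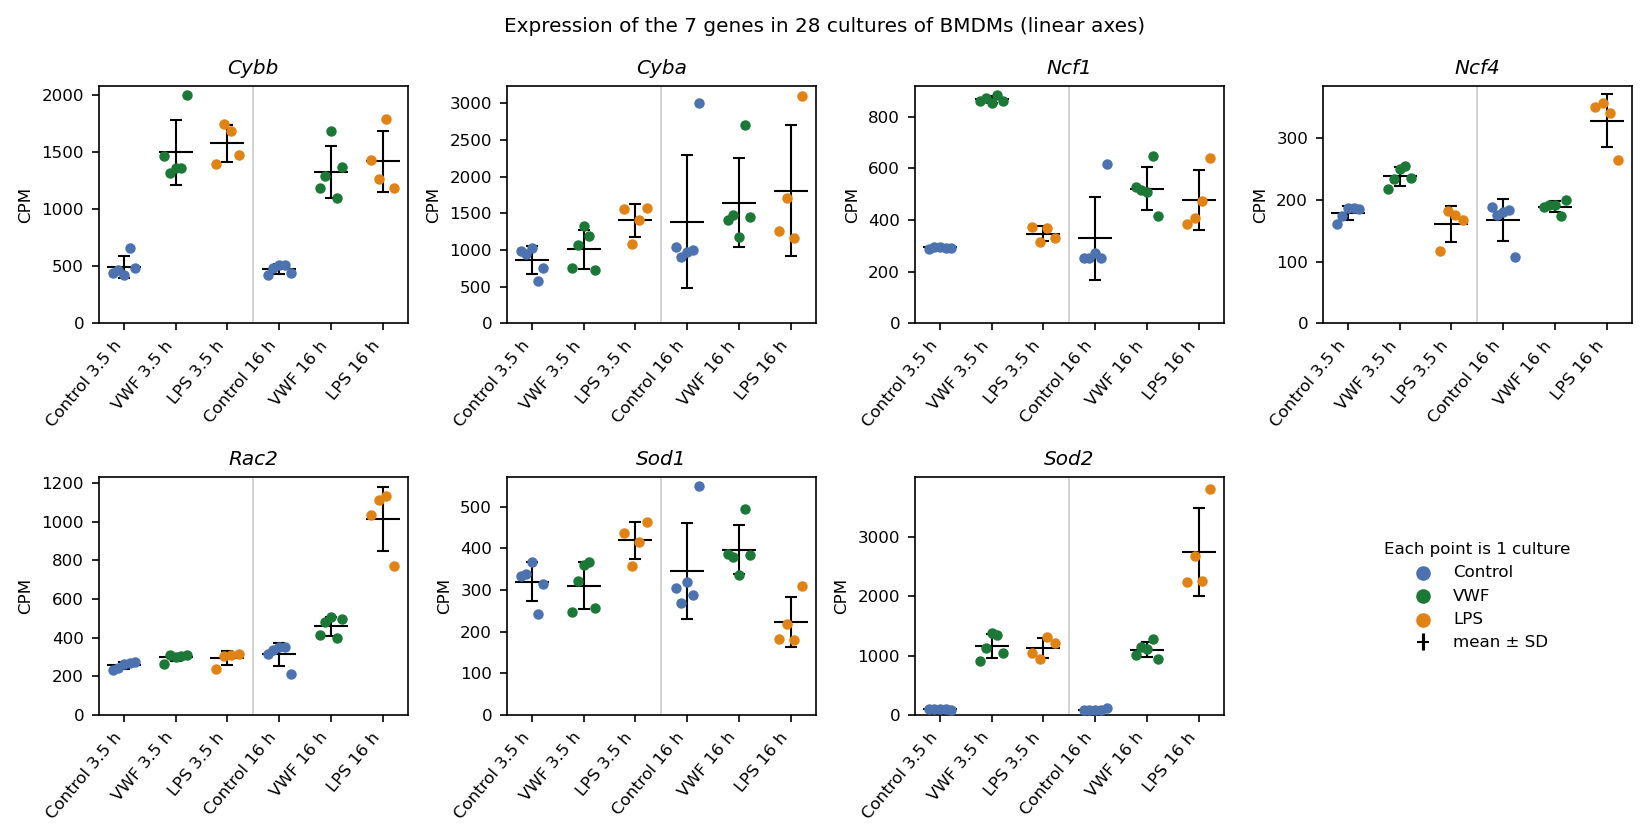
Expression in CPM (vertical, linear axes from 0) of each gene in every culture, by treatment and time; points are cultures and black bars the mean ± SD. Cybb and Sod2 were higher in all treated groups than in controls, Ncf1 was highest in VWF cultures at 3.5 h, and Rac2 and Ncf4 were highest in LPS cultures at 16 h.

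Cybb, the electron-carrying subunit, rose with either agonist at both times. At 3.5 h it measured 442, 464, 425, 661 and 487 CPM in control cultures. VWF cultures had 1463, 1315, 1364, 1359.5 and 1999 CPM and LPS cultures 1397, 1745, 1684 and 1477 CPM. Every treated culture lay above every control culture, although Control 3.5 h replicate 4 and VWF 3.5 h replicate 5 were high for their groups. The log2 fold change was 1.62 ± 0.16 (SE), adjusted p = 5.44e-06, for VWF and 1.69 ± 0.13 (SE), adjusted p = 8.21e-07, for LPS. At 16 h control cultures had 424, 487, 516, 515 and 446 CPM. VWF cultures had 1182, 1287, 1687, 1102 and 1368 CPM and LPS cultures 1431, 1265, 1789.9 and 1187 CPM, and neither treated group overlapped the controls. The log2 fold changes were 1.46 ± 0.13 (SE), adjusted p = 1.49e-05 (VWF), and 1.61 ± 0.14 (SE), adjusted p = 8.61e-06 (LPS). The change of either effect with time missed the test (-0.12 ± 0.20 (SE), adjusted p = 0.726, for VWF and -0.06 ± 0.20 (SE), adjusted p = 0.820, for LPS).

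Cyba, the partner of Cybb in the membrane, varied more within groups and responded less. At 3.5 h control cultures had 992, 940.2, 1034, 572 and 758 CPM, VWF cultures 749, 1067, 1322, 1191 and 725 CPM and LPS cultures 1557, 1080.1, 1405 and 1567 CPM. VWF and control cultures overlapped, while every LPS culture lay above every control culture. LPS gave a log2 fold change of 0.72 ± 0.19 (SE), adjusted p = 0.00540, and VWF one of 0.25 ± 0.21 (SE), adjusted p = 0.381. With library totals in place of TMM factors the LPS value was 0.19 (adjusted p = 0.325). At 16 h control cultures had 1047, 899, 972, 1001 and 2999.6 CPM, VWF cultures 1409, 1474, 1175, 2706 and 1457 CPM and LPS cultures 1261, 1704, 1166 and 3104 CPM. One culture of each group was far above the rest, among them both cultures that stood apart. The folds against control missed the test with all cultures (0.25 ± 0.36 (SE), adjusted p = 0.694, for VWF and 0.43 ± 0.45 (SE), adjusted p = 0.457, for LPS). Without Control 16 h replicate 5 and LPS 16 h replicate 4 they were 0.73 (adjusted p = 0.0179) and 0.53 (adjusted p = 0.00413). That setting kept the high VWF culture, VWF 16 h replicate 4. Without this culture alone the VWF value was 0.0069, and without LPS 16 h replicate 4 alone the LPS value was 0.020. The Cyba folds at 16 h thus rested on which high culture was left out.

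Ncf1, the organizer of the cytosolic subunits, rose most with VWF at 3.5 h. At 3.5 h control cultures had 289.5, 296, 297, 293 and 293 CPM and VWF cultures 859, 873, 853, 882 and 861 CPM. The 2 groups were far apart and each was tight, with means of 294 ± 2.99 CPM (SD, n = 5) and 866 ± 11.9 CPM (SD, n = 5). The log2 fold change was 1.58 ± 0.06 (SE), adjusted p = 4.04e-09, about 2.98-fold. LPS cultures at 3.5 h had only 373, 314, 367 and 332 CPM, just above the controls without overlap, and the log2 fold change was 0.26 ± 0.08 (SE), adjusted p = 0.0119. This small LPS difference turned to −0.28 (adjusted p = 0.00605) with library totals, a scaling that moved the median of all genes to −0.55. At 16 h control cultures had 251, 253, 271, 254 and 617 CPM, VWF cultures 526, 515, 507, 646 and 413 CPM and LPS cultures 384, 406, 474 and 639.6 CPM. Control replicate 5 lay within the range of the treated cultures and the other 4 controls lay below all of them. With all cultures neither difference passed the edgeR test of the groups compared (0.66 ± 0.26 (SE), adjusted p = 0.0847, for VWF and 0.57 ± 0.31 (SE), adjusted p = 0.158, for LPS). The VWF difference passed with DESeq2 (0.66, adjusted p = 0.0456), with library totals (0.64, adjusted p = 0.0345) and with all 6 groups in 1 fit (0.66, adjusted p = 0.00583), the last of which also called the LPS difference (0.52, adjusted p = 0.0197). Without the 2 cultures that stood apart the values were 1.00 (adjusted p = 4.44e-05) and 0.75 (adjusted p = 3.00e-05).

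Ncf4, which encodes p40phox, a subunit that binds membrane phosphoinositides, showed a small early rise with VWF and a late one with LPS. Control cultures at 3.5 h had 161, 173, 187, 187 and 184 CPM, VWF cultures 217, 234, 249, 255 and 234 CPM and LPS cultures 117, 181, 176 and 168 CPM. All VWF cultures lay above all controls, and the LPS cultures overlapped the controls. The log2 fold changes were 0.43 ± 0.07 (SE), adjusted p = 2.53e-04 (VWF), and -0.13 ± 0.12 (SE), adjusted p = 0.369 (LPS). With library totals the LPS value was −0.67 (adjusted p = 3.48e-04), lower than control and past the test. At 16 h control cultures had 189, 176, 181, 184 and 108 CPM, VWF cultures 189, 191, 191, 174 and 199 CPM and LPS cultures 350.1, 357, 340.2 and 264 CPM. Here the LPS cultures were apart from both other groups, which overlapped. The log2 fold change was 1.01 ± 0.17 (SE), adjusted p = 7.96e-04, with LPS and 0.16 ± 0.15 (SE), adjusted p = 0.489, with VWF. The LPS value lay at the 2-fold limit (0.88 without Control 16 h replicate 5) and with library totals was 0.43 (adjusted p = 0.130) where the median of all genes moved to −0.59.

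Rac2, the Rac GTPase of haematopoietic cells, rose most in LPS cultures at 16 h. Control cultures at 3.5 h had 232, 244, 262, 268 and 275 CPM, VWF cultures 265, 309.8, 298, 307 and 309 CPM and LPS cultures 238, 302, 312 and 318 CPM. All 3 groups overlapped, and the log2 fold changes were 0.24 ± 0.07 (SE), adjusted p = 0.0197 (VWF), and 0.21 ± 0.10 (SE), adjusted p = 0.0776 (LPS). With library totals the VWF value was 0.017 (adjusted p = 0.844), and with no filter its call was also lost (0.29, adjusted p = 0.0530). The LPS value was −0.33 (adjusted p = 0.00774) with library totals, 0.29 (adjusted p = 0.0396) with the filterByExpr filter and 0.30 (adjusted p = 0.00662) without LPS 3.5 h replicate 1. Later, at 16 h, control cultures had 317, 336, 349, 354 and 209.5 CPM, VWF cultures 414, 481, 506, 399.9 and 496 CPM and LPS cultures 1037, 1114, 1132 and 772 CPM. The 3 groups did not overlap and stood in the order control, VWF, LPS. LPS gave a log2 fold change of 1.73 ± 0.18 (SE), adjusted p = 2.81e-05, and VWF one of 0.54 ± 0.15 (SE), adjusted p = 0.0227. The VWF call was lost without VWF 16 h replicate 2, 3 or 5 (adjusted p up to 0.0553) and with library totals (0.47, adjusted p = 0.115), and its size was 0.43 without Control 16 h replicate 5.

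Sod2, the mitochondrial dismutase, had the largest change of the 7 genes in all 4 comparisons with control. At 3.5 h control cultures had 91.3, 103, 101, 94.8 and 85.6 CPM. VWF cultures had 911, 1121, 1385, 1351 and 1045 CPM and LPS cultures 1036, 945, 1319 and 1206 CPM, about an order of magnitude above the controls. On the log2 scale the change was 3.63 ± 0.13 (SE), adjusted p = 3.40e-09, with VWF and 3.58 ± 0.12 (SE), adjusted p = 9.21e-10, with LPS. Later, at 16 h, control cultures had 85.4, 82.1, 77.0, 89.9 and 112 CPM, VWF cultures 1013, 1148, 1106, 1277 and 949.9 CPM and LPS cultures 2235, 2678, 2257 and 3813 CPM. The VWF cultures were near their early level, and all LPS cultures lay above all VWF cultures. Against control the log2 values were 3.62 ± 0.13 (SE), adjusted p = 6.99e-08 (VWF), and 4.98 ± 0.22 (SE), adjusted p = 1.16e-07 (LPS). Of the 100-base stretches in Sod2 transcripts, 12.8% also occur in transcripts of AC166110.4 or Rps6ka2, whose group means were at most 0.0121 and 37.3 CPM.

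Sod1, the cytosolic dismutase, missed the test against control with VWF and fell between the times under LPS. At 3.5 h control cultures had 333, 339, 368, 243 and 314 CPM, VWF cultures 248, 322, 359, 367 and 257 CPM and LPS cultures 438, 358, 415 and 464 CPM. VWF cultures lay within the range of the controls, and LPS cultures reached above it with 1 culture inside. The log2 fold changes were -0.02 ± 0.14 (SE), adjusted p = 0.918 (VWF), and 0.41 ± 0.13 (SE), adjusted p = 0.0169 (LPS), and the LPS call was lost without LPS 3.5 h replicate 4 (adjusted p = 0.0550) and was −0.12 (adjusted p = 0.348) with library totals. Later, at 16 h, control cultures had 304, 269.6, 319, 289 and 551 CPM, VWF cultures 387, 379.8, 336, 495 and 385 CPM and LPS cultures 181, 219, 180.4 and 309 CPM. Control replicate 5 lay above all treated cultures and LPS replicate 4 lay among the controls, while VWF and LPS cultures did not overlap. The log2 fold change was -0.60 ± 0.26 (SE), adjusted p = 0.0789, with LPS and 0.19 ± 0.19 (SE), adjusted p = 0.537, with VWF. The LPS value was −0.81 (adjusted p = 0.0240) without LPS 16 h replicate 4 and −0.37 (adjusted p = 0.109) without Control 16 h replicate 5. With all cultures it passed with DESeq2 (−0.60, adjusted p = 0.0435), with all 6 groups in 1 fit (−0.65, adjusted p = 0.00292) and with library totals (−1.14, adjusted p = 4.39e-04). Without the 2 cultures that stood apart the values were −0.57 (adjusted p = 2.92e-04) for LPS and 0.41 (adjusted p = 0.00868) for VWF.

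**Figure D2:**
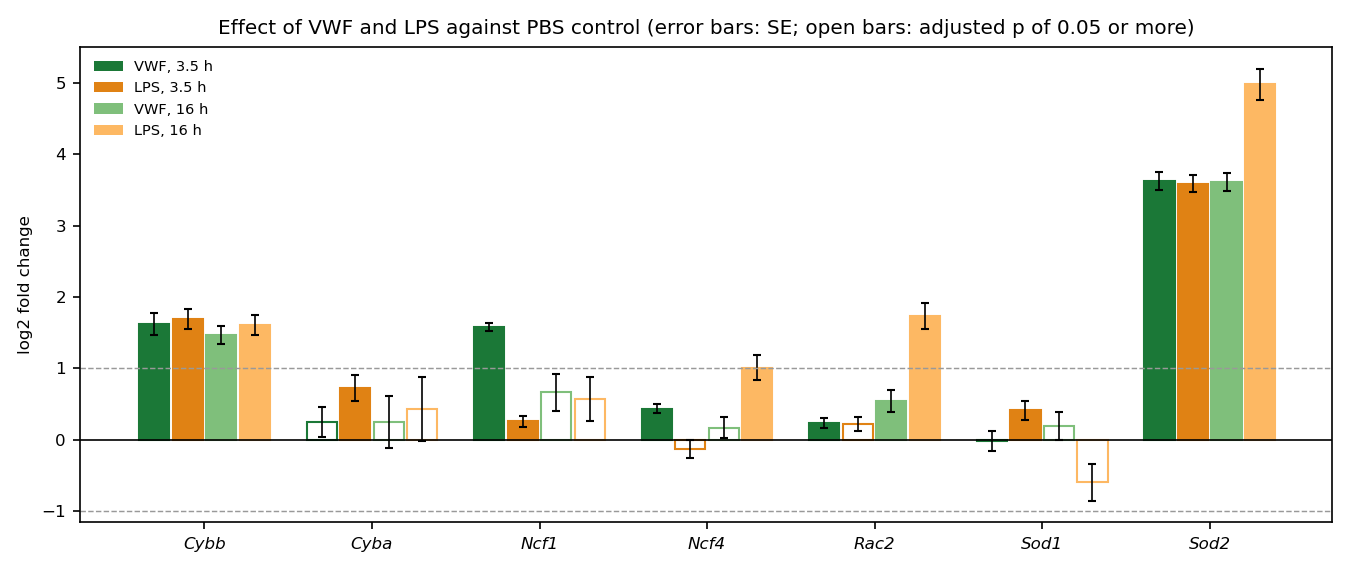
Log2 fold change (vertical axis) of each gene against PBS control for VWF and LPS at 3.5 h and 16 h, with SE bars; open bars missed the test and dashed lines mark a 2-fold change. Sod2 had the tallest bars, Cybb ranged from 1.46 to 1.69, Ncf1 was tallest with VWF at 3.5 h, and Rac2 with LPS at 16 h.

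The next question was whether VWF and LPS differed directly, without reference to the controls. At 3.5 h, 3 of 7 genes passed the test, against 50.2% of all genes, and 1 gene (Ncf1) also exceeded 2-fold, against 11.4%. Ncf1 was higher in VWF than in LPS cultures, at 866 ± 11.9 CPM (SD, n = 5) against 346 ± 28.4 CPM (SD, n = 4), a log2 difference of 1.34 ± 0.08 (SE), adjusted p = 8.07e-07. Ncf4 was also higher in VWF cultures, by 0.59 ± 0.12 (SE), adjusted p = 0.00257. Sod1 was lower in VWF cultures, by a log2 difference of -0.41 ± 0.13 (SE), adjusted p = 0.0280, a call that was lost without LPS 3.5 h replicate 1, 3 or 4 (adjusted p up to 0.0820). Cybb, Rac2 and Sod2 gave -0.05 ± 0.14 (SE), adjusted p = 0.793, 0.05 ± 0.10 (SE), adjusted p = 0.690, and 0.07 ± 0.14 (SE), adjusted p = 0.711, and Cyba gave -0.45 ± 0.19 (SE), adjusted p = 0.0712. The Cyba value passed without LPS 3.5 h replicate 2 (−0.56, adjusted p = 0.0375) or VWF 3.5 h replicate 3 (−0.56, adjusted p = 0.0302). With library totals, which moved the median of all genes to 0.32, Rac2 (0.35, adjusted p = 0.00510) and Sod2 (0.36, adjusted p = 0.0217) passed and Sod1 did not (−0.12, adjusted p = 0.401), and DESeq2 called Cyba (−0.47, adjusted p = 0.0318). The SE of these values bounds what the cultures could resolve and does not show that the agonists act alike.

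At 16 h the differences lay elsewhere. Of the 7 genes, 4 passed the test, against 60.5% of all genes, and 2 (Rac2 and Sod2) also exceeded 2-fold, against 25.5%. Rac2 was lower in VWF than in LPS cultures, at 459 ± 48.8 CPM (SD, n = 5) against 1014 ± 166 CPM (SD, n = 4), a log2 difference of -1.14 ± 0.14 (SE), adjusted p = 5.68e-05. Sod2 was lower at 1099 ± 126 CPM (SD, n = 5) against 2746 ± 739.9 CPM (SD, n = 4), a log2 difference of -1.32 ± 0.17 (SE), adjusted p = 9.84e-05. Ncf4 was lower too (-0.79 ± 0.10 (SE), adjusted p = 9.95e-05), whereas Sod1 was higher in VWF cultures (0.84 ± 0.18 (SE), adjusted p = 0.00260), at 396 ± 59.0 CPM (SD, n = 5) against 223 ± 60.7 CPM (SD, n = 4). Without LPS 16 h replicate 4 the Sod1 difference was 1.03, beyond 2-fold. Cybb, Cyba and Ncf1 gave -0.09 ± 0.16 (SE), adjusted p = 0.646, -0.14 ± 0.33 (SE), adjusted p = 0.748, and 0.13 ± 0.17 (SE), adjusted p = 0.525. With library totals, which moved the median of all genes to 0.46, Sod1 alone exceeded 2-fold and Ncf1 was higher in VWF cultures by 0.59 (adjusted p = 0.00467).

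**Figure D3:**
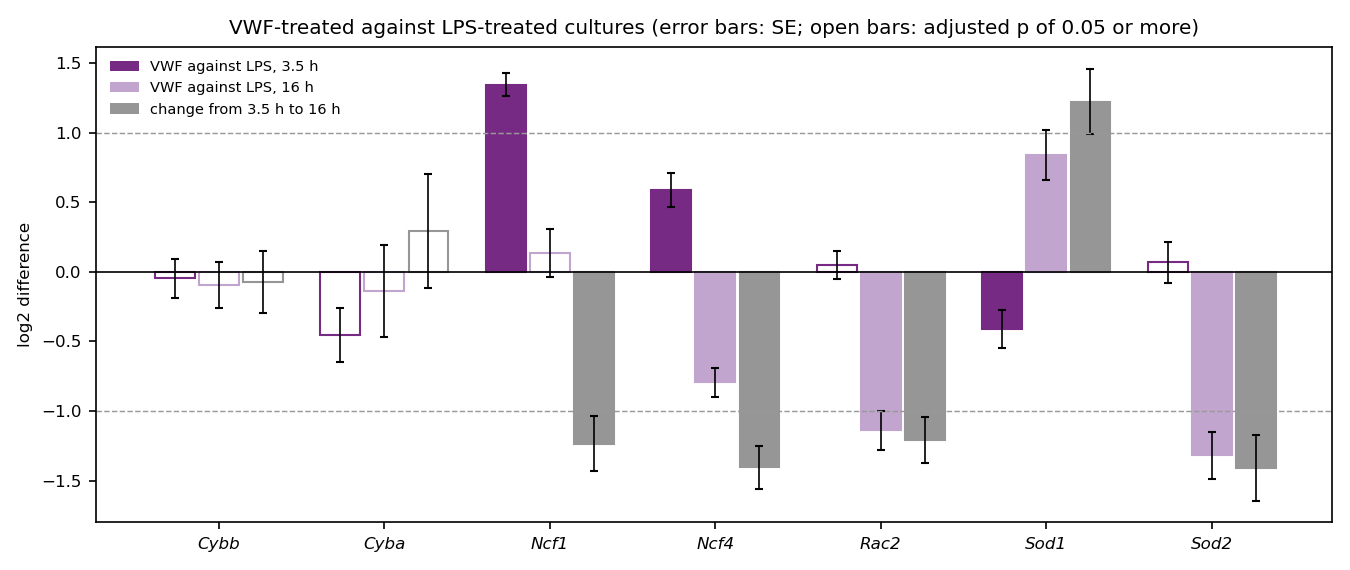
Log2 difference between VWF and LPS cultures (vertical axis, positive where VWF was higher) at 3.5 h and 16 h and the change of that difference between the times, with SE bars; open bars missed the test. Ncf1 and Ncf4 were above 0 at 3.5 h, Ncf4, Rac2 and Sod2 were below 0 at 16 h, and Sod1 went from below 0 to above it.

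The change between the times was tested as such. In control cultures 0 of 7 genes passed the edgeR test between 3.5 h and 16 h, against 41.1% of all genes, with 0 at an unadjusted p under 0.05 and 0 with DESeq2. With all 6 groups in 1 fit Rac2 passed (0.29, adjusted p = 0.0497). Without Control 16 h replicate 5 Rac2 was higher by 0.41 (adjusted p = 5.63e-04) and Ncf1 lower, at −0.19 (adjusted p = 0.0115). In VWF cultures 5 of 7 passed (67.9% of all genes) and 0 exceeded 2-fold (21.4% of all genes), also with DESeq2. Ncf1 fell (-0.73 ± 0.10 (SE), adjusted p = 6.69e-05) and so did Ncf4 (-0.33 ± 0.07 (SE), adjusted p = 0.00166), while Rac2 rose (0.63 ± 0.09 (SE), adjusted p = 1.03e-04), as did Cyba (0.70 ± 0.24 (SE), adjusted p = 0.0219) and Sod1 (0.36 ± 0.13 (SE), adjusted p = 0.0355). The Cyba call was lost without VWF 3.5 h replicate 1 or 5 (adjusted p up to 0.0542) and its size was 0.46 without VWF 16 h replicate 4, and the Sod1 call without any of 4 cultures, VWF 3.5 h replicates 1, 2 and 5 and VWF 16 h replicate 4 (adjusted p up to 0.0856). In LPS cultures 5 of 7 passed (60.9% of all genes) and 3 exceeded 2-fold (28.1%). Rac2 rose (1.82 ± 0.15 (SE), adjusted p = 1.02e-05), Sod2 rose (1.31 ± 0.20 (SE), adjusted p = 4.32e-04), Ncf4 rose (1.06 ± 0.15 (SE), adjusted p = 3.42e-04) and Ncf1 rose by less (0.49 ± 0.17 (SE), adjusted p = 0.0351), while Sod1 fell (-0.88 ± 0.19 (SE), adjusted p = 0.00317). The Ncf1 call was lost without any of LPS 3.5 h replicates 1 to 4 or LPS 16 h replicate 3 (adjusted p up to 0.0926), and its size was 0.31 without LPS 16 h replicate 4. Without LPS 16 h replicate 4 the Sod1 change was −1.09, beyond 2-fold.

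The effect of VWF against control changed with time for 1 of 7 genes, against 32.6% of all genes, and for 0 beyond 2-fold, against 13.5%. This was Ncf1, whose effect was smaller at 16 h by -0.89 ± 0.28 (SE), adjusted p = 0.0189. Without Control 16 h replicate 5 it was −0.55 (adjusted p = 8.31e-04), and the VWF effect on Ncf4 (−0.37, adjusted p = 0.00117) and the LPS effect on Ncf1 (0.68, adjusted p = 0.00446) then also changed. The effect of LPS changed with time for 4 of 7 genes by the test (48.8% of all genes), all 4 by more than 2-fold (26.3%). It was larger at 16 h for Rac2 (1.54 ± 0.20 (SE), adjusted p = 9.23e-06), Sod2 (1.41 ± 0.23 (SE), adjusted p = 7.48e-05) and Ncf4 (1.16 ± 0.21 (SE), adjusted p = 2.55e-04), and it was lower at 16 h for Sod1 (-1.0 ± 0.30 (SE), adjusted p = 0.0103). The Sod1 value lay at the 2-fold limit and was −0.77 without Control 16 h replicate 5 and −1.22 without LPS 16 h replicate 4. The difference between VWF and LPS changed with time for 5 of 7 genes by the test, against 52.7% of all genes, and by both rules, against 25.0%. The log2 changes were -1.40 ± 0.15 (SE), adjusted p = 7.60e-07 (Ncf4), -1.41 ± 0.24 (SE), adjusted p = 9.15e-05 (Sod2), -1.23 ± 0.20 (SE), adjusted p = 6.39e-05 (Ncf1), -1.21 ± 0.16 (SE), adjusted p = 8.30e-06 (Rac2), and 1.22 ± 0.24 (SE), adjusted p = 3.40e-04 (Sod1). Cybb (-0.07 ± 0.22 (SE), adjusted p = 0.811) and Cyba (0.29 ± 0.41 (SE), adjusted p = 0.565), the membrane subunits, missed the test.

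Levels between genes were compared in TPM. Cyba was the most abundant of the 7 transcripts in all 6 groups, from 2639 ± 430 TPM (SD, n = 5) in control cultures at 3.5 h to 4290 ± 1060 TPM (SD, n = 5) in VWF cultures at 16 h, and in each group its range lay above that of the next gene. Sod2 was the least abundant in control cultures, at 30.7 ± 2.25 TPM (SD, n = 5) at 3.5 h and 25.7 ± 1.90 TPM (SD, n = 5) at 16 h, below the range of the gene above it. The other 5 genes of the control cultures at 3.5 h had means of 258 to 286 TPM and overlapped. In VWF cultures at 3.5 h the order after Cyba was Cybb (733 ± 198 TPM) and Ncf1 (664 ± 64.7 TPM), which overlapped, then Ncf4 (329 ± 17.7 TPM), Sod2 (322 ± 27.1 TPM), Rac2 (269 ± 23.4 TPM) and Sod1 (217 ± 18.1 TPM; SD, n = 5 for each). In LPS cultures at 16 h the means were, with each range overlapping the next, Rac2 (692 ± 183 TPM), Sod2 (559 ± 73.4 TPM), Cybb (518 ± 161 TPM), Ncf4 (342 ± 78.1 TPM), Ncf1 (267 ± 44.7 TPM) and, below their range, Sod1 (114 ± 15.2 TPM; SD, n = 4 for each). The exon length used for Sod1 is 3970 bases, and with the median length of its protein-coding transcripts, 641 bases, Sod1 was second after Cyba in 5 groups and behind Cyba, Sod2 and Rac2 in LPS cultures at 16 h, where Sod2 then lay above Rac2 with overlap.

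Ratios within a culture show how the balance of the parts moved, as a description. The Sod2 to Sod1 ratio of TPM was 0.120 ± 0.0200 (SD, n = 5) in control cultures at 3.5 h, 1.49 ± 0.0875 (SD, n = 5) with VWF and 1.07 ± 0.136 (SD, n = 4) with LPS. At 16 h it was 0.106 ± 0.0181, 1.11 ± 0.138 and 4.90 ± 0.0470 in the same order, and the 4 LPS cultures spanned 4.85 to 4.96 although one of them stood apart in its levels. The size of this ratio depends on the lengths: with coding transcript lengths it was 0.0332 in control cultures at 3.5 h and 1.35 in LPS cultures at 16 h. The Ncf4 to Ncf1 ratio was 1.10 ± 0.0646 in control cultures and 0.498 ± 0.0298 in VWF cultures at 3.5 h, without overlap. The Ncf1 to Cybb ratio was 0.963 ± 0.156 in control cultures and 0.938 ± 0.149 in VWF cultures at 3.5 h, where both transcripts rose, and 0.353 ± 0.0567 in LPS cultures. The Cybb to Cyba ratio was 0.113 ± 0.0549 in control, 0.290 ± 0.131 in VWF and 0.208 ± 0.0589 in LPS cultures at 3.5 h. The treated groups overlapped widely, and the control range (0.0735 to 0.207) also overlapped those of VWF (0.185 to 0.493) and LPS (0.160 to 0.289).

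**Figure D4:**
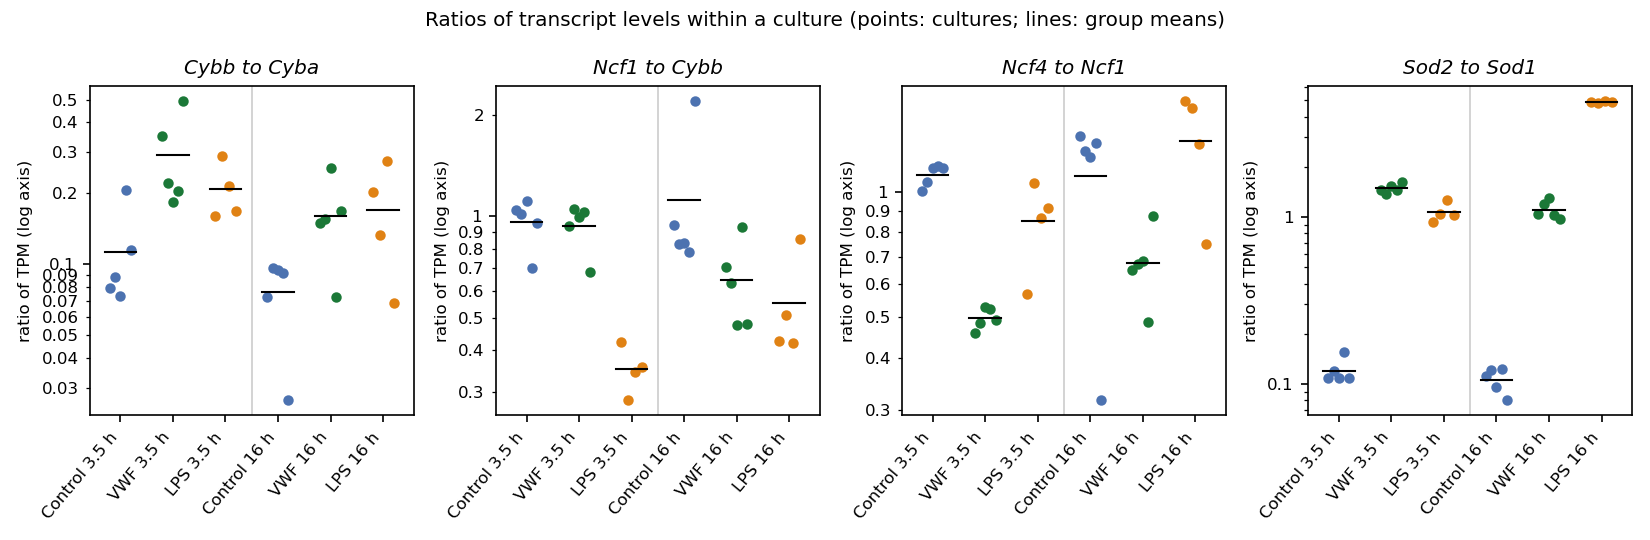
Ratio of TPM (vertical, log axis) between pairs of the genes in every culture; points are cultures and lines the group means. The Sod2 to Sod1 ratio was near 0.1 in controls, near 1 in both VWF groups and in LPS cultures at 3.5 h, and 4.90 in LPS cultures at 16 h.

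The rest of the oxidase pathway was read from 3 further lists. Of 19 genes of oxidase assembly and activation, 18 were expressed enough to test. With VWF at 3.5 h, 7 were higher and 2 lower by the test, where 22.3% and 21.3% of all genes were higher and lower, and 2 were higher and 0 lower beyond 2-fold (9.10% and 5.59% of all genes). These were Prkcd, a protein kinase C that phosphorylates p47phox (1.36 ± 0.13 (SE), adjusted p = 5.60e-06), and Hvcn1, the proton channel that balances the charge the oxidase moves (1.32 ± 0.13 (SE), adjusted p = 8.50e-06). Both were also higher with VWF than with LPS at 3.5 h (1.04 ± 0.12 (SE), adjusted p = 4.52e-05, and 0.99 ± 0.16 (SE), adjusted p = 5.96e-04), as Ncf1 was. With LPS at 3.5 h, 6 were higher and 5 lower by the test (31.8% and 33.9% of all genes), near the shares over all genes, and beyond 2-fold were the GTPase Rap1b (1.66), the phospholipase Pla2g4a (1.45) and the kinase Mapk14 (1.21) upward (12.8% of all genes) and the Rac exchange factor Vav2 (−1.86) downward (11.8%). At 16 h, VWF gave 8 higher and 2 lower by the test (13.1% and 14.7% of all genes), with Prex1, another Rac exchange factor, at 1.02 and Vav3 at −1.26 beyond 2-fold (4.55% and 4.15%). LPS at 16 h gave 7 higher and 3 lower by the test (27.3% and 26.4% of all genes), with, beyond 2-fold (15.3% and 12.4%), Pla2g4a (1.94), Prex1 (1.62), Cybc1 (1.58), Rap1b (1.43) and Vav1 (1.34) up and Prkcb (−1.54) down. Cybc1 encodes a chaperone needed for gp91phox protein, and its log2 fold change with LPS at 3.5 h was −0.57 ± 0.08 (SE), adjusted p = 8.44e-05, so its LPS effect changed by 2.16 ± 0.16 (SE), adjusted p = 8.15e-09, between the times. Rac1, the other Rac protein of macrophages, had log2 fold changes within 0.05 of 0 in all 4 comparisons.

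Of the 9 genes of other oxidases and their partners, 0 reached 10 TPM in any culture. Nox1 was the highest of them, with a group mean of at most 1.13 TPM. Of 16 genes that remove superoxide and peroxide, 15 were tested. The antioxidant peroxiredoxin Prdx5 rose in all 4 comparisons, by 1.70 ± 0.21 (SE), adjusted p = 3.45e-05, with VWF and 1.92 ± 0.17 (SE), adjusted p = 2.19e-06, with LPS at 3.5 h, and by 2.34 ± 0.22 (SE), adjusted p = 2.14e-05, and 3.19 ± 0.30 (SE), adjusted p = 1.75e-05, at 16 h. By the test, 3 genes of this list were higher and 1 lower with VWF at 3.5 h, 8 higher and 2 lower with LPS at 3.5 h, 2 higher and 0 lower with VWF at 16 h, and 4 higher and 4 lower with LPS at 16 h. The shares over all genes given above for higher and lower calls were 22.3% and 21.3%, 31.8% and 33.9%, 13.1% and 14.7%, and 27.3% and 26.4% in that order, so that of the higher counts those with VWF at both times and with LPS at 16 h lay near them. Thioredoxin Txn1 (1.69) and Prdx1 (1.04) exceeded 2-fold with LPS at 3.5 h, Prdx6 (1.20) with VWF at 16 h, and Txn1 (1.67) and Prdx6 (1.10) with LPS at 16 h, where the mitochondrial thioredoxin reductase Txnrd2 was lower (−1.42). Catalase (Cat) and glutathione peroxidase Gpx1 were lower with LPS at 16 h, at −0.96 ± 0.26 (SE), adjusted p = 0.0117, and −0.87 ± 0.22 (SE), adjusted p = 0.00783.

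**Figure D5:**
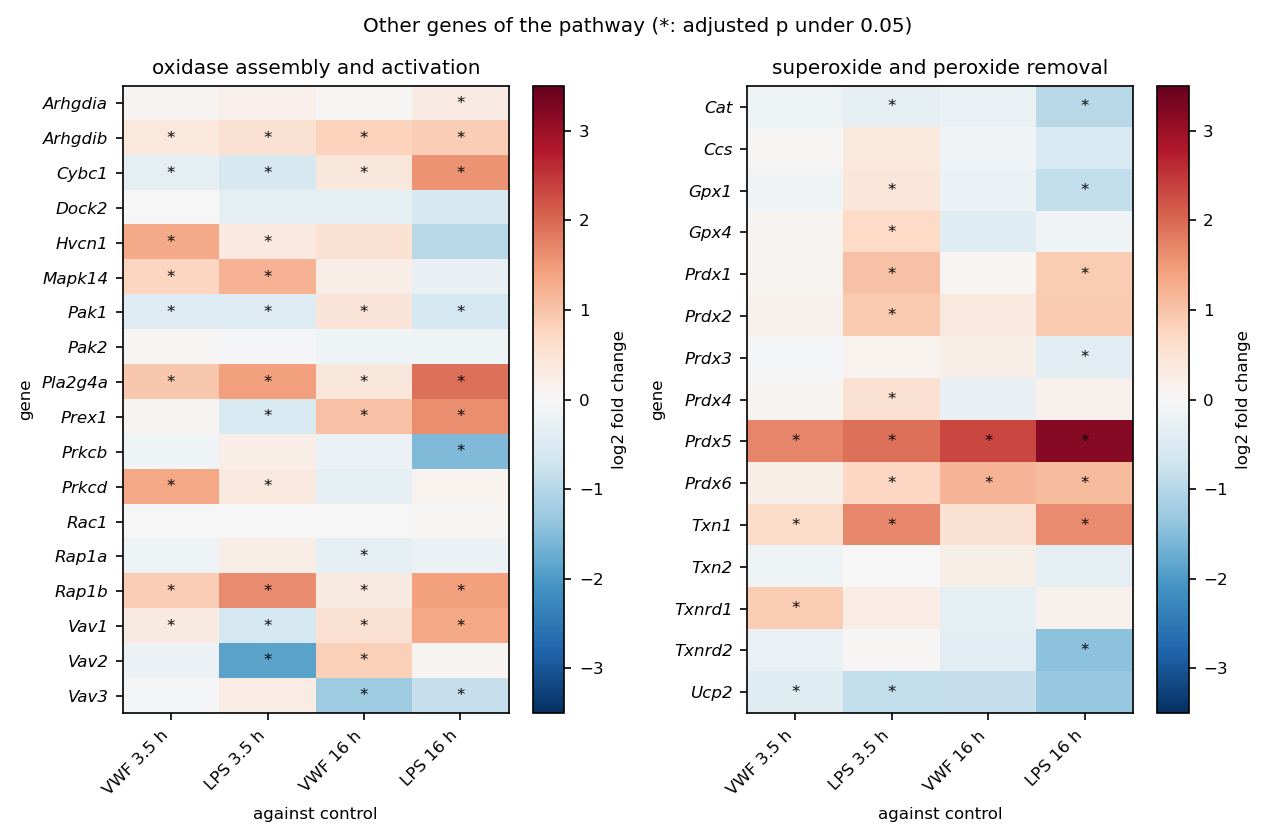
Log2 fold change against control (color) of the tested genes of oxidase assembly and activation and of superoxide and peroxide removal, with VWF and LPS at 3.5 h and 16 h; stars mark an adjusted p under 0.05. Prdx5 rose in all 4 columns, and Prkcd and Hvcn1 were highest with VWF at 3.5 h.

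Among the genes that reached 10 TPM in any culture, those whose 6 group means lay nearest to each gene were found by the root mean square difference of centred log2 CPM over the 6 groups, as a description. Nearest to Sod2 was Mmp14, a membrane metalloproteinase (0.28), which went from 41.8 ± 17.6 CPM (SD, n = 5) in control cultures at 3.5 h to 464 ± 85.5 CPM (SD, n = 5) under VWF, while LPS cultures had 420 ± 69.6 CPM (SD, n = 4). Nearest to Cybb were Mapk11 (0.17) and the scavenger receptor Msr1 (0.18), to Ncf1 Ctu1 (0.18) and the haem synthesis enzyme Alas1 (0.24), to Ncf4 the adaptor Grb2 (0.05) and Aars (0.08), and to Rac2 Msrb1 (0.14) and Chpf (0.16). Cyba and Sod1 spanned under 1 on this scale and were left out.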

How the data were processed

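The authors aligned paired-end reads with STAR to GRCm38 (mm10), and the deposited values are raw counts of 54532 Ensembl genes. The sources used here give no STAR version, annotation or strand setting. The members, lists and tests were chosen with earlier results of these data known.

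Groups and replicate numbers came from the labels. CPM was computed with TMM factors over the 28 cultures, and TPM with exon lengths of GENCODE M21. Genes with at least 10 TPM in a culture of the comparison were tested with edgeR's quasi-likelihood test (edgeR 4.0.16, R 4.3.3, robust dispersion) on the groups compared, with Benjamini-Hochberg adjustment over all genes tested. Genes were called at an adjusted p under 0.05 and an absolute log2 fold change above 1. Changes with time were interaction terms over the 4 groups compared, also for the difference between VWF and LPS, where controls did not enter. The test was also run on counts simulated from its own model. No simulated culture stood apart from its group, so this run cannot check the test for such cultures. The SE is the log2 fold change divided by the square root of the F statistic.

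Alternatives were DESeq2 1.42.0, other scalings and filters, all groups in 1 fit, a replicate block, and leaving out each culture. Leaving out the 2 cultures that stood apart and TPM from coding transcript lengths were chosen after seeing the data. Deviations of same-numbered cultures from their group means were all correlated above 0.1 in 1 comparison, VWF against LPS at 16 h (4 pairs, 0.16 to 0.78). The main test there was unpaired, as in every comparison. The replicate number entered only as a block among the alternatives. Named genes are the 7, the list genes called in a comparison with control or needed for a count, and the nearest genes of those 7 whose group means span at least 1 (log2 CPM), of which up to 3 were ranked. Depth was 41131209 to 77699206 counts per culture, and counting error was not measured apart from the spread between cultures. No culture was left out of the main tests. One gene of the oxidase assembly list is not reported here.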

Additional observations from a re-analysis of the deposited data

Results flagged for a closer look

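Single cultures lay far from the rest of their group, by Dixon's criterion at the 95% level, in 9 of 42 gene and group combinations, where chance gives about 1 in 20. Of these, 5 were in Control 16 h replicate 5, with Cyba at 2999.6 CPM (next 1047), Ncf1 at 617 CPM (next 271), Sod1 at 551 CPM (next 319), Ncf4 at 108 CPM (next 176) and Rac2 at 209.5 CPM (next 317). The others were Cybb at 661 CPM in Control 3.5 h replicate 4 (next 487), Cybb at 1999 CPM in VWF 3.5 h replicate 5 (next 1463), Cyba at 2706 CPM in VWF 16 h replicate 4 (next 1474) and Rac2 at 265 CPM in VWF 3.5 h replicate 1 (next 298).

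Effects differed between the times by an edgeR interaction test for 10 of 21 combinations of gene and contrast. For the VWF effect this was Ncf1 (−0.89). For the LPS effect these were Ncf4 (1.16), Rac2 (1.54), Sod1 (−1.0) and Sod2 (1.41). For the difference between VWF and LPS these were Ncf1 (−1.23), Ncf4 (−1.40), Rac2 (−1.21), Sod1 (1.22) and Sod2 (−1.41), all on the log2 scale.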

How the results depend on the processing

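Without the 2-fold threshold the counts were 5 (VWF at 3.5 h), 5 (LPS at 3.5 h) and 3 (VWF against LPS) of 7 genes at 3.5 h, 4 (VWF against LPS) at 16 h, 5 for VWF and 5 for LPS between the times, and 1 for the change of the VWF effect. With library totals 1 gene exceeded 2-fold between VWF and LPS at 16 h. Leaving out 1 culture at a time gave 0 to 1 genes for the change of the VWF effect with time (1 without VWF 16 h replicate 4), 2 to 3 for VWF at 16 h, 3 to 4 for LPS at 16 h, 2 to 3 for VWF against LPS at 16 h, 2 to 4 for LPS between the times, and 3 to 4 for the change of the LPS effect. Signs turned with library totals at 3.5 h for Ncf1 (−0.28), Rac2 (−0.33) and Sod1 (−0.12) with LPS and Cybb between VWF and LPS (0.26), at 16 h for Cyba with LPS (−0.10) and Cybb (0.36) and Cyba (0.33) between VWF and LPS, for Sod2 between VWF times (0.021), and for Cybb in the changes of the VWF effect (0.0084) and of the VWF to LPS difference (0.10). With other filters they turned for Sod1 with VWF at 3.5 h (0.033 with filterByExpr and 0.025 with no filter), Rac2 between VWF and LPS at 3.5 h (−0.0088) and Cybb in the change of the VWF to LPS difference (0.0051, both with filterByExpr). In the change of the VWF effect, Cyba (−0.0235) and Sod2 (−0.0168) turned with DESeq2 and with median-of-ratios factors (−0.0235 and −0.017). Without the 2 cultures that stood apart, Cyba between VWF and LPS at 16 h was 0.25, Ncf1, Ncf4 and Sod1 between control times were −0.19, 0.033 and −0.11, and Cyba between LPS times was −0.0019. Apart from Ncf1 between control times and Ncf1 and Rac2 with LPS at 3.5 h, the values whose sign turned missed the test under that setting.

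Leaving out single cultures turned the sign of values near 0, which ranged from −0.12 to 0.047 (Sod1, VWF at 3.5 h), −0.19 to 0.0056 (Cybb), −0.038 to 0.088 (Rac2) and −0.0079 to 0.15 (Sod2) between VWF and LPS at 3.5 h, −0.19 to 0.032 (Cybb) and −0.39 to 0.25 (Cyba) between VWF and LPS at 16 h, −0.11 to 0.062 (Cybb), −0.19 to 0.26 (Ncf1), −0.13 to 0.033 (Ncf4) and −0.11 to 0.21 (Sod1) between control times, −0.15 to 0.0049 (Sod2) between VWF times and −0.0019 to 0.57 (Cyba) between LPS times. In the changes with time these were −0.26 to 0.51 (Cyba) and −0.076 to 0.099 (Sod2) for VWF, −0.19 to 0.0049 (Cybb) and −0.71 to 0.21 (Cyba) for LPS, and −0.18 to 0.064 (Cybb) for the VWF to LPS difference.

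With the replicate number as a block, calls were lost for Ncf1 (0.25, adjusted p = 0.0695) and Sod1 (0.41, adjusted p = 0.0636) with LPS at 3.5 h, Sod1 between VWF and LPS at 3.5 h (−0.36, adjusted p = 0.0602), Rac2 with VWF at 16 h (0.56, adjusted p = 0.0632) and Ncf1 between LPS times (0.46, adjusted p = 0.0644), and Cyba (0.81, adjusted p = 0.0414) and Ncf1 (0.90, adjusted p = 0.00392) passed with LPS at 16 h. In VWF against LPS at 16 h, the comparison whose same-numbered cultures were correlated, the block changed no call. The cause of these changes was not tested. With all 6 groups in 1 fit, calls were also lost for Sod1 between VWF and LPS at 3.5 h (adjusted p = 0.0777), Cyba (0.0583 as adjusted p) and Sod1 (0.0946) between VWF times and Ncf1 between LPS times (0.0656). In the same fit, calls were gained for Ncf1 with VWF (0.00583 as adjusted p) and with LPS (0.0197) and Sod1 with LPS (0.00292) at 16 h and for Rac2 between control times (0.0497). Between the times, Sod1 with VWF (0.0813) and Ncf1 with LPS (0.0530) lost their calls with filterByExpr, and Cyba (0.0568) and Sod1 (0.101) with VWF with no filter. Over all genes, filterByExpr and no filter tested and called more genes than the 10 TPM filter, for VWF and LPS against control and VWF against LPS 2099 and 2366 against 1204, 3917 and 4542 against 2010, and 1776 and 1942 against 856 at 3.5 h, and 1362 and 1378 against 679, 4087 and 4224 against 2210, and 3897 and 4242 against 1932 at 16 h. Between the times they called 1570 and 1524 against 757 (control), 3458 and 3974 against 1694 (VWF) and 4116 and 4298 against 1964 (LPS), and for the changes of the VWF effect, the LPS effect and their difference 1972 and 1904 against 1166, 3790 and 3613 against 2301, and 3576 and 3528 against 2052. Library totals moved the share of higher calls from 62.0% to 48.25% (VWF) and from 52.1% to 24.1% (LPS) at 3.5 h, from 55.25% to 25.2% (LPS) at 16 h, from 41.2% to 69.8% and from 43.3% to 72.1% between VWF and LPS at 3.5 h and 16 h, and from 42.8% to 56.8% for the change of that difference. They moved the median log2 value of all genes to −0.22, −0.55, 0.32, −0.59 and 0.46 for VWF, LPS and VWF against LPS at 3.5 h and for LPS and VWF against LPS at 16 h, and to 0.14 for the change of the VWF effect. The number of cultures limits what could be resolved, and counting error was not measured apart from the spread between them.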
